A study of Homo sapiens with 2 samples.

Results

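CTGF, CYR61, AMOTL2, THBS1 and ANKRD1, which are known to respond to the coactivator YAP and its TEAD partners, were followed in HES2, a line of human embryonic stem cells. They are 5 of the 425 rows, and of the 368 rows with a gene symbol, in the authors' deposited table. The genes were picked by name after their increase in this same comparison had been seen, so their values are a description and carry no test. One culture expressed PB and served as the control, and the other expressed PB-Tfcp2l1ΔCP2. What PB stands for, the species of Tfcp2l1 and the part called CP2 are not spelled out in the labels. For 2 passages before harvest both grew in basal medium with 10% KSR, 10 ng/ml Activin A and 10 ng/ml FGF2. Each group had 1 library, so there is no replicate error, and the differences below describe these 2 libraries. In bulk RNA a change in the share of cells that express a gene and a change in RNA per cell cannot be told apart.

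YAP and TAZ carry no DNA-binding domain of their own and reach target genes through TEAD factors. The Hippo kinases LATS1 and LATS2 keep them in the cytoplasm, and cell spreading, tension and low cell density let them enter the nucleus. CTGF and CYR61 encode cysteine-rich matricellular proteins of the CCN family, and THBS1 encodes thrombospondin-1, a matricellular glycoprotein that can activate latent TGF-beta. These 3 products are secreted. AMOTL2 encodes an angiomotin-like scaffold of cell junctions that binds YAP and holds it back, so that it is both a target and an inhibitor. ANKRD1 encodes an ankyrin repeat protein of the nucleus and the sarcomere, and is neither matricellular nor a junction protein. The label of the set therefore covers 4 of the 5 genes.

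TEAD factors bind the letters GGAATG, read on either strand, and the promoter windows below are shown because every member with a window in the RefSeq table held this match. The windows, from RefSeq with the build GRCh38.p14, run from 250 bases before to 50 after the annotated start site, 5′ to 3′ on the strand of the gene, and capitals mark the TEAD letters. That build was used for these sequences only, since the submitters' notes name hg19.
CTGF, chr6:131951323-131951622, minus strand: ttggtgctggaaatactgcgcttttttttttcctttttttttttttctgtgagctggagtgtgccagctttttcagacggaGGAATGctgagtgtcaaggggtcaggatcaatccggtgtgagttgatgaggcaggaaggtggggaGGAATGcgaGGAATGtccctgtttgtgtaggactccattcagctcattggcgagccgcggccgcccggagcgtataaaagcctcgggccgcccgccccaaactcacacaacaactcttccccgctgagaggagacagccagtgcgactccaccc
AMOTL2, chr3:134374398-134374697, minus strand: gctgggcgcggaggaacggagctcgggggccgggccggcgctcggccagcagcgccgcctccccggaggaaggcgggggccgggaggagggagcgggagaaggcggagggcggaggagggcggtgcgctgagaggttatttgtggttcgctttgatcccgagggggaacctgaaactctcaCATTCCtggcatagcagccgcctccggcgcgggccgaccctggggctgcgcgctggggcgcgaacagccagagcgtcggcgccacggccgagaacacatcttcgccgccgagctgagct
THBS1, chr15:39580829-39581128, plus strand: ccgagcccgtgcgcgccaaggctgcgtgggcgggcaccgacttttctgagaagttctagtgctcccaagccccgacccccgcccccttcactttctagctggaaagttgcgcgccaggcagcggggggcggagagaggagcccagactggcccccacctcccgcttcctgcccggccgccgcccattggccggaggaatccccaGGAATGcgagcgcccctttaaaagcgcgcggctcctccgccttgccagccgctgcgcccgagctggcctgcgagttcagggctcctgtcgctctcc
ANKRD1, chr10:90921038-90921337, minus strand: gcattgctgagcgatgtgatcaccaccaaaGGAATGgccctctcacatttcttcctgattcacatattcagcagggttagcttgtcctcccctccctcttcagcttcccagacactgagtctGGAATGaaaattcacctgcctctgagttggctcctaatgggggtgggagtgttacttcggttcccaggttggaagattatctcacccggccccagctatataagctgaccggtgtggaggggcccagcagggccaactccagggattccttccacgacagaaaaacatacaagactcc

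The CTGF window held 3 TEAD matches, at -169, -104 and -95 from the start site, all on the strand of the gene. ANKRD1 held 2, at -220 and -128, and THBS1 held 1, at -46. AMOTL2 has 2 windows, and the match lay at -69, on the opposite strand, in the window shown; the other window held none. No window was matched for CYR61. Of 35116 windows of this length 14.0% held at least 1 TEAD match, 1.37% at least 2 and 45 windows (0.128%) at least 3. Among the genes of the deposited table the share with a match was 12.8% of the 188 windows of higher genes and 11.3% of the 203 windows of lower genes. A match is a run of letters and not a shown binding site, and TEAD letters in such promoters are part of why these genes are known as TEAD targets.

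**Figure D1:**
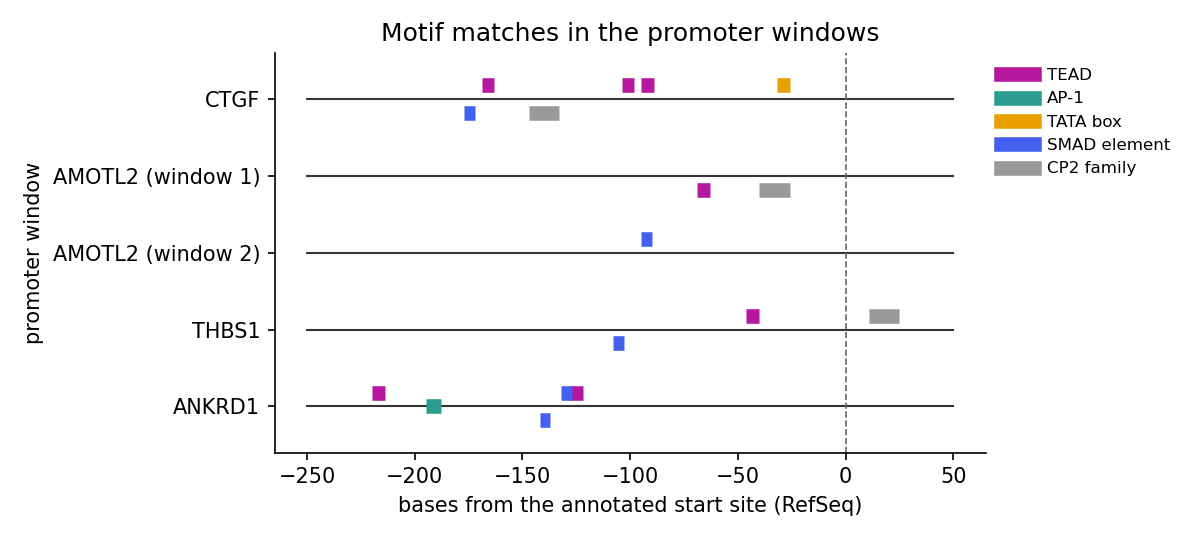
Motif matches in the 5 promoter windows of the 4 members with a window. The horizontal axis gives bases from the annotated start site (dashed line). Marks above a line are on the strand of the gene and marks below on the other strand. Marks on the line are matches to a search pattern that is the same on both strands. TEAD matches appear in 4 of the 5 windows, 3 of them in CTGF.

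The same windows were searched for 5 other motifs on both strands. For the TATA box the exact letters TATAAA were found in CTGF only, at -32, against 11.5% of all windows. Variants of these letters were not searched, such as the tatataa in the printed ANKRD1 window. The AP-1 motif of the JUN and FOS proteins was searched in a loose form, TGANTCA, with any base in the middle. It was found in ANKRD1 only, at -195, against 7.71%. The letters there read TGATTCA, and which middle bases JUN and FOS bind was not looked at. The short SMAD element (GTCTG) was in a window of each of the 4 genes, but 45.3% of all windows hold it. In ANKRD1 a SMAD match (-132 to -128) shares 1 base with a TEAD match (-128 to -123). The CP2 family motif (CCNG, 6 bases of any kind, CCNG) was in the CTGF, AMOTL2 and THBS1 windows, against 39.4% of all windows. A CArG box, the motif of SRF, was in none of them, against 1.29%. GC content ran from 52.7% in ANKRD1 to 72.7% in the printed AMOTL2 window, with a median of 58.7% over all windows.

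All 5 genes were higher in the PB-Tfcp2l1ΔCP2 library, from 2.11-fold for CTGF to 3.08-fold for AMOTL2 among the 4 with reads in both libraries. ANKRD1 went from no read to 17. Rows higher in PB-Tfcp2l1ΔCP2 make up 47.3% of the table, and the choice of members on this contrast fixes their direction. Folds here are ratios of whole reads recovered from the authors' deposited p-values, divided by the ratio of library totals of 1.02. Their exact 95% intervals cover counting error only, not the spread between cultures.

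Among the secreted members, CTGF (Gene ID 1490), which binds integrins and growth factors in the matrix, had an expression value of 10.8 in PB and 22.9 in PB-Tfcp2l1ΔCP2. The authors' unit is not named, but the values follow reads per length: over the members with reads, 1 unit of value and 1 kilobase stood for 22.9 to 24.0 recovered reads, in part because the search kept near the values. CTGF rested on 585 and 1264 reads, a 2.11-fold increase (95% counting interval 1.91 to 2.33). It had the highest level of the 5 in both libraries and the smallest fold. The table holds no row under 2-fold, and the interval of CTGF reaches below that limit.

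CYR61 (Gene ID 3491), the other CCN member and a ligand of integrins that promotes adhesion, had a value of 7.53 in PB and 17.9 in PB-Tfcp2l1ΔCP2. Its 396 and 965 reads gave 2.38-fold (2.12 to 2.68). The fold interval overlaps that of CTGF. Overlap of intervals, here and below, does not show that folds are equal, and no pair of folds was compared directly. The value of CTGF was 1.44 times that of CYR61 in PB and 1.27 times in PB-Tfcp2l1ΔCP2. In GENCODE v29 the transcripts of these paralogs share 0 words of 31 bases, so reads of that length or longer would not be split between them.

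THBS1 (Gene ID 7057), whose product binds CD36, CD47 and latent TGF-beta, had a value of 1.68 in PB and 4.14 in PB-Tfcp2l1ΔCP2. It had the lowest level of the secreted members but is the longest gene of the set (7253 bases), so that 285 and 720 reads lay behind these values. The fold was 2.47 (2.15 to 2.84), which overlaps the intervals of both CCN genes. On the log2(value + 1) scale its difference was 0.94, just under the 2-fold limit of 1.

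AMOTL2 (Gene ID 51421), the junction scaffold, had a value of 2.82 in PB and 8.72 in PB-Tfcp2l1ΔCP2. With 332 and 1046 reads the fold was 3.08 (2.72 to 3.50). Its interval lay above those of CTGF and CYR61 and overlapped that of THBS1. AMOTL2 also had the smallest p-value of the 5 in the authors' deposited table. Its rank was 92 of 18250 tests, against 178 for CTGF, 182 for CYR61 and 247 for THBS1. The ranks and the number of tests are not given by the authors and were inferred from the p-values and FDRs. Those p-values compare reads of 2 libraries and not conditions.

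ANKRD1 (Gene ID 27063), a cofactor of transcription that is abundant in heart muscle under load, was listed at 0.01 in PB, the lowest value of the table, and at 0.37 in PB-Tfcp2l1ΔCP2. No read in PB and 17 in PB-Tfcp2l1ΔCP2 lay behind these values. With 3 counts put in place of no read in PB, the fold would be 5.54, without counting error. With counting error taken in, the exact interval begins at 4.03, above the upper end of the other 4 intervals. At so few reads only a large fold could pass the FDR limit of the deposited table. The value ratio of 37.0 rests on the 0.01 entered for no read and is no fold. ANKRD1 stood at rank 2928 of the 18250 tests, with an FDR of 5.82e-05 in the authors' deposited table.

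**Figure D2:**
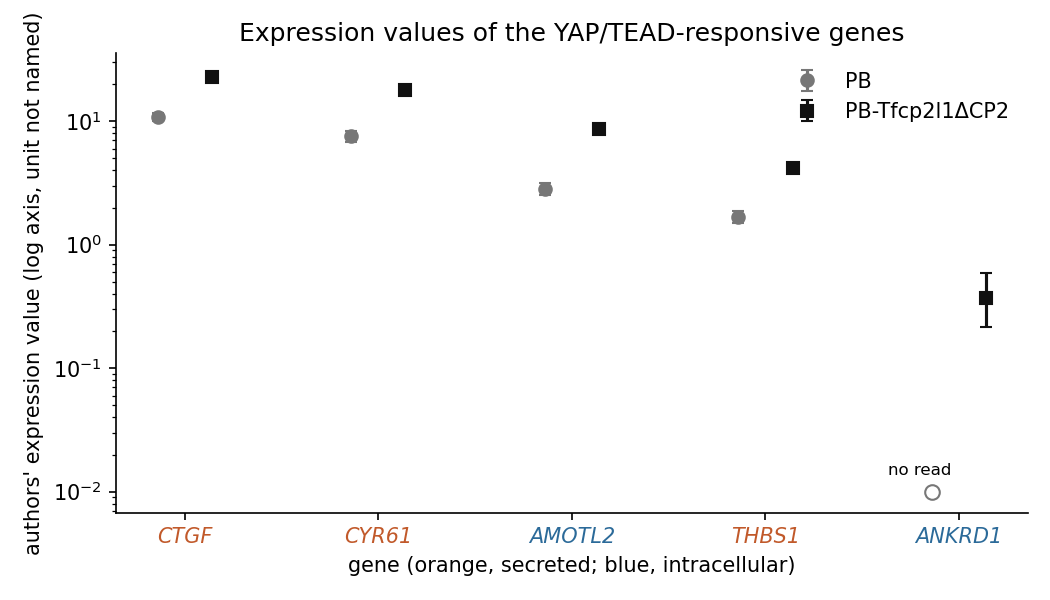
Expression values of the 5 genes in the PB library (grey circles) and the PB-Tfcp2l1ΔCP2 library (black squares) on a log axis, with bars for exact 95% counting intervals (Poisson) of the recovered reads. The open circle is ANKRD1 in PB, listed at 0.01 with no read; every square lies above its circle, from 0.37 for ANKRD1 to 22.9 for CTGF.

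The order of the levels per length was the same in both libraries, CTGF, CYR61, AMOTL2, THBS1 and ANKRD1, and no pair of neighbours in that order had overlapping counting intervals. The steps between them were not. CYR61 was 2.67 times AMOTL2 in PB and 2.06 times in PB-Tfcp2l1ΔCP2. AMOTL2 was 1.68 times THBS1 in PB and 2.11 times in PB-Tfcp2l1ΔCP2. By reads, which follow length, AMOTL2 passed CYR61, with 332 against 396 reads in PB and 1046 against 965 in PB-Tfcp2l1ΔCP2.

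**Figure D3:**
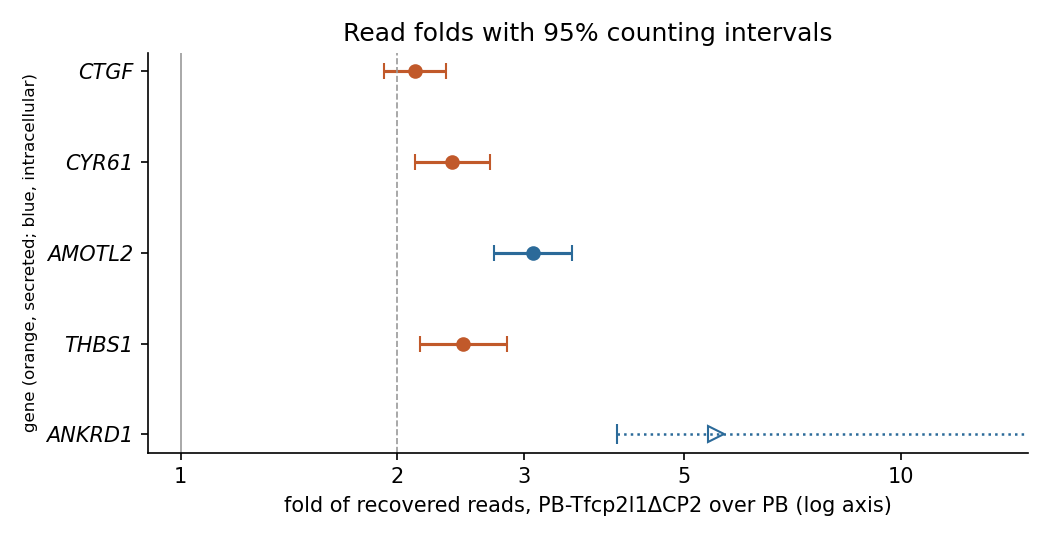
Fold of recovered reads, PB-Tfcp2l1ΔCP2 over PB, on a log axis, for secreted (orange) and intracellular (blue) members, with bars for exact 95% counting intervals. Solid and dashed lines mark no change and 2-fold. For ANKRD1 the open triangle is the fold of 5.54 with 3 counts in place of no read. The dotted line runs from 4.03 with no upper end. The 3 secreted genes overlap between 2.15 and 2.33, below AMOTL2 at 3.08.

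The secreted members together went from a summed value of 20.0 to 45.0 (1266 to 2949 reads), and the intracellular pair from 2.83 to 9.09 (332 to 1063 reads). Every secreted member had a lower fold than either intracellular member. Of the 6 pairs of a secreted and an intracellular member, only THBS1 and AMOTL2 had overlapping fold intervals. The pairs with ANKRD1 rest on 17 reads against none. At so few reads only a large fold could pass the FDR limit of the deposited table, so these pairs carry no contrast of the classes. On the log2(value + 1) scale the order turned, with mean differences of 1.04 for the secreted and 0.89 for the intracellular members. That turn comes from ANKRD1, whose difference is 0.44 on this scale, while AMOTL2 has the largest of the 5 at 1.35. Without a pseudocount the means were 1.21 and 3.42. With 3 and 2 genes, picked on this contrast, no test of secreted against intracellular was made.

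All but ANKRD1, 4 of the 5, reached a value of at least 1 in one of the libraries. Of these, 3 (CTGF at 1.01, CYR61 at 1.15 and AMOTL2 at 1.35) were at least 2-fold higher on the log2(value + 1) scale. Over the 291 rows that reach this value 16.8% were. The median difference was 1.08 over the 4 members and 1.01 over all 5, against -0.61 over the 291 rows and 0.94 over the 121 of them that were higher. By value ratio AMOTL2 was 98th of the 201 higher rows, near their median ratio of 3.07, and THBS1 (134th), CYR61 (140th) and CTGF (167th) stood below it. By level in the PB-Tfcp2l1ΔCP2 library CTGF was 5th and CYR61 14th of all 425 rows, AMOTL2 37th, THBS1 73rd and ANKRD1 340th.

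**Figure D4:**
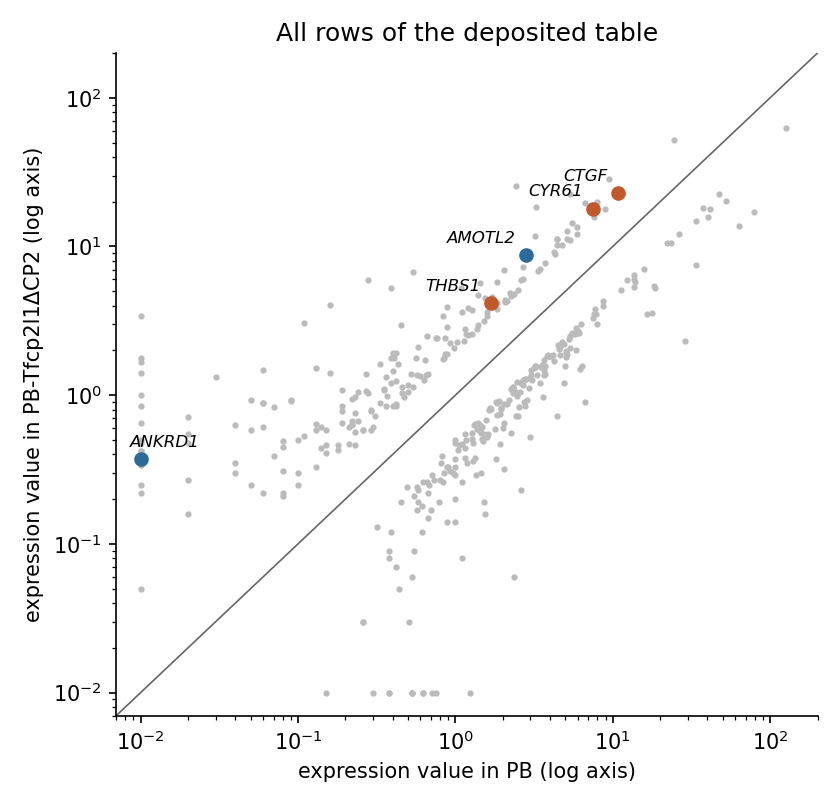
Expression value of every row of the deposited table in PB (horizontal, log axis) and in PB-Tfcp2l1ΔCP2 (vertical, log axis), with the secreted members in orange, the intracellular members in blue and the line of equal values. The empty band along that line shows that rows under 2-fold are absent. CTGF and CYR61 lie high by level but close to that band, and ANKRD1 lies on the left edge at 0.01.

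Genes whose pair of values lay nearest to each member were found by distance on the log2(value + 1) scale over the 2 libraries. KIAA0101 (8.91 to 17.9) and CYR61 were nearest to CTGF, and MYLIP (7.55 to 15.8) and PHF21B (6.71 to 19.6) to CYR61. MIXL1, a homeobox gene of the primitive streak (2.68 to 7.27), and KLF11 (3.72 to 7.70) were nearest to AMOTL2. GOLT1A (1.83 to 4.20) and KLHL4 (1.55 to 4.48) were nearest to THBS1. FOXA2, a forkhead factor of the endoderm, has the same pair of values as ANKRD1 (0.01 and 0.37), and RBBP8NL (0.01 to 0.39) came next. With only 2 libraries, nearness means a like level and ratio and nothing more.

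Of 22 genes in a pan-cancer signature of YAP/TAZ targets, 5 were in the table, all higher: CTGF, CYR61, AMOTL2, ANKRD1 and MYOF. Over all genes 425 of 18250 tests have a row, of which 47.3% were higher. As 4 of the 5 were picked for being higher, MYOF is the only one not picked that way. With 17 genes of the signature without a row, 1 listed gene is too few to set above 425 of 18250. MYOF, which encodes the membrane repair protein myoferlin, went from 0.31 to 0.73 on 49 and 120 reads (2.39-fold, 1.70 to 3.41). THBS1 is not in that signature, and its other 17 genes were not analysed here. Of 30 genes of the Hippo pathway itself, the kinases, scaffolds, coactivators and TEAD factors, AMOTL2 was the only one listed. The lists in this and the next paragraphs were drawn up with earlier results of these data known.

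In the CCN family 3 of 6 genes were listed, against 425 of 18250 tests over all genes. All 3 were higher, as were 47.3% of all rows, but CTGF and CYR61 were picked for that. The third, NOV, which encodes a CCN protein known to counter CTGF in some settings, went from 0.07 to 0.39 on 4 and 24 reads (5.87-fold, 2.02 to 23.3). Its interval overlaps those of CTGF and CYR61. THBS1 was the only listed gene of 5 thrombospondins, AMOTL2 of 3 motins, and ANKRD1 of 6 muscle ankyrin repeat genes and sarcomere partners. Of 12 other matricellular genes 2 were listed, in opposite directions. TNC, the tenascin-C gene, went from 0.33 to 1.62 (4.89-fold, 3.75 to 6.45), and SMOC1, which encodes a calcium-binding matrix protein, from 0.38 to 0.09 on 33 and 8 reads (4.22-fold lower, 1.91 to 10.6).

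Genes of inputs that can also act on the members were listed in part. Of 14 targets of Activin and TGF-beta 4 were listed, against 425 of 18250 tests over all genes. All 4 were higher, but 3 of them are CTGF, CYR61 and THBS1, picked on this contrast. The other was CER1, the Nodal inhibitor gene, which went from 2.43 to 25.4 on 65 and 696 reads (10.5-fold, 8.11 to 13.7). Of 20 AP-1 and immediate early genes 2 were listed, both higher. The AP-1 subunit gene JUN went from 5.92 to 13.6 (2.29-fold, 2.05 to 2.56) and EGR1 from 1.27 to 3.76 (2.96-fold, 2.33 to 3.79). The part of these inputs in the values of the 5 members was not tested.

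The list of 15 SRF targets drawn up here had no gene with a row. It left out the members and EGR1, which have rows, so it does not show that no gene responsive to SRF was called. None of 12 receptors of the secreted members, 19 junction and polarity genes or 11 genes of TGF-beta ligands and their activation had a row. None of 10 pluripotent stem cell markers and none of 10 cardiomyocyte markers had one, so the labelled cell type could not be checked from these values. One of 12 fibroblast markers was listed, COL1A1, and it was lower (41.6 to 18.0). One of 10 endothelial markers was listed, ESAM, also lower (2.05 to 0.32, on 87 and 14 reads). A single listed gene does not give the direction of a cell type. The rest of these lists was not analysed here, and the part of other cells in the result was not tested.

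The deposited table holds a component annotation, which names an extracellular place for CTGF and THBS1, a sarcomere and organelle for ANKRD1, and nothing for CYR61 and AMOTL2. Of 59 rows with an extracellular term 52.5% were higher, and of 250 annotated rows without one 45.2%.

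Whether strand was kept is not given in the sources used here, so reads of overlapping genes may be counted with the members. In GENCODE v29, 195 of 2339 exonic bases of CTGF overlap the antisense gene AL133346.1, and 448 of 9158 exonic bases of THBS1 overlap FSIP1 on the opposite strand. AC037198.2, an antisense gene, overlaps 411 bases of THBS1. In AMOTL2 a pseudogene on the same strand, RPL39P5, covers 187 of 5984 exonic bases. No exon of another gene overlaps CYR61 or ANKRD1. None of these overlapping genes was found by its GENCODE name among the symbols of the table. Only 368 of the 425 rows have a symbol, so a row without one or under another name would be missed. Words of 31 bases shared in the same orientation with any other gene made up 2.57% of the words of AMOTL2, all from that pseudogene. The share was 0.674% for THBS1, 0.26% for CTGF, 0.257% for ANKRD1 and 0 for CYR61. In either orientation, words were shared with 886 genes for THBS1, 109 for ANKRD1, 40 for CTGF, 1 for AMOTL2 and 0 for CYR61.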

How the data were processed

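Total RNA of the 2 cultures was taken with Trizol and sequenced on BGISEQ-500, per the labels' protocols. The submitters' processing notes name Bowtie 0.12.2 and hg19 without saying how they were used. The sources used here do not name the gene counter, annotation or test. Per the file headers, the columns of the deposited table are a gene length, an expression value for either library (a signal of unnamed unit, never negative), and the authors' log2 fold change, FDR and p-value. The column of the second library lacks the word delta and was matched as the only one naming Tfcp2l1. The log2 column is the plain log2 ratio of both deposited values. Every row has an FDR of 0.000984 or less and is at least 2-fold apart, so the table lists called genes.

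The p-values follow the Audic and Claverie formula for whole reads of a pair of libraries. Each row was searched for reads that return its p-value within a relative 5e-06 and lie near its values. Exactly 1 solution came out for 406 of 425 rows (95.5%), all 5 members included; members had 17 to 1264 reads in the PB-Tfcp2l1ΔCP2 library. Library totals are not given; their ratio was found to be 1.02. The recovery was tested on simulated data made with the same formula, which checks the search and not the formula. Folds have Clopper-Pearson 95% intervals. Computed differences are of log2(value + 1), with no test, for values of 1 or more, called at 2-fold. Alternatives were other pseudocounts, filters, scalings and recovered reads.

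The members and lists were chosen with earlier results of these data known. The named genes are the 5 members, every list gene with a row, and the 2 genes nearest to each member. Promoter windows came from RefSeq (GRCh38.p14) by Gene ID and matched 4 of 5 members; overlaps and shared words came from GENCODE v29. The planned comparison of protein sequences was not made. A further gene was taken out of the Activin/TGF-beta list and its counts, and is not reported here. Python 3.11.15, numpy 2.4.6, pandas 2.3.3 and scipy 1.17.1 were used.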

Additional observations from a re-analysis of the deposited data

How the results depend on the processing

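All 5 genes were higher under each setting tried, and no direction turned in 61 alternative values. No setting could turn one, so this is no check of direction. A pseudocount keeps the order of the values of both libraries, and filters only drop genes. Both scalings raised the PB-Tfcp2l1ΔCP2 values (factors of 1.27 and 2.04), and recovered reads were searched in the direction of the values. No paired analysis was possible because PB and PB-Tfcp2l1ΔCP2 have 1 library apiece. The differences on the log2(value + 1) scale (CTGF 1.01, CYR61 1.15, AMOTL2 1.35, THBS1 0.94, ANKRD1 0.44) shrank with a pseudocount of 5 to 0.82, 0.87, 0.81, 0.45 and 0.10, with means of 0.71 (secreted) and 0.46 (intracellular), a median of 0.81 and 0 members at least 2-fold higher instead of 3. With a pseudocount of 0.5 ANKRD1 was at 0.77 and the intracellular mean at 1.12. With none, AMOTL2 was at 1.63, THBS1 at 1.30, ANKRD1 at 5.21, the intracellular mean at 3.42 and the median at 1.28. Recovered reads gave 1.62 for AMOTL2, 1.30 for THBS1 and a median of 1.28. With 3 counts in place of no read in PB they gave 2.47 for ANKRD1 and 2.05 for the intracellular mean. Scaling to the total of the listed genes adds up to 0.34: CTGF 1.34, CYR61 1.48, AMOTL2 1.66, THBS1 1.22, secreted mean 1.35 and median 1.41. Median-of-ratios scaling adds up to 1.03: CTGF 2.01, CYR61 2.14, AMOTL2 2.30, THBS1 1.82, ANKRD1 0.80, means of 1.99 and 1.55, median 2.08. Both factors rest on called genes only and are no check of depth. Without CTGF and CYR61, 1 member was at least 2-fold higher. The other settings gave 3 or 4. Depth limits ANKRD1 most, with 17 reads in all.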

Other observations

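The genes beside ANKRD1 on chromosome 10 were also in the table. Of the 10 nearest protein-coding genes in RefSeq order, 5 on each side, 3 were listed and all 3 were higher in the PB-Tfcp2l1ΔCP2 library; they were named after their values were seen. PCGF5, the next gene, which encodes a Polycomb subunit, went from 0.29 to 0.58 on 49 and 101 reads (2.02-fold, 95% counting interval 1.42 to 2.90). HECTD2, a ubiquitin ligase gene, went from 1.17 to 2.58 on 123 and 270 reads (2.15-fold, 1.73 to 2.68). FGFBP3, which encodes a carrier of fibroblast growth factors, went from 4.29 to 8.96 on 253 and 540 reads (2.09-fold, 1.79 to 2.43). Their intervals overlap each other and lie below the start of the ANKRD1 interval at 4.03. Of 352 listed genes placed in that order, 267 had no listed gene among these neighbours and 6 had 3 or more: ANKRD1, these 3 genes, and TRIM49D1 and TRIM49D2, which are near-identical copies. None of the 10 neighbours of CTGF, CYR61, AMOTL2 or THBS1 had a row.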
